A study of Rattus norvegicus with 21 samples.

Results

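NS398 and indomethacin (Indo) are a pair of cyclooxygenase inhibitors, and their effects on RNA in rat spinal cord cultures were set against each other here. The arrays were chosen by their titles: 3 NS398 arrays and 3 Indo arrays, 6 of the 21 arrays of the series. Each array was a 2-colour hybridisation of a treated 4 hr culture beside a pool of vehicle-treated 4 hr cultures. For the NS398 cultures the pool had received DMSO, and for the Indo cultures it had received ETOH. The other groups used below were cultures treated with CKIN, MP or acetaminophen (Acet) and unpooled PBS-treated cultures (Injured 4 hr), 3 arrays each, all at 4 hr and all against a pool of PBS-treated cultures. The series, on anti-inflammatory treatment after cord injury by its title, also holds 3 arrays of freshly dissected cord (Uninjured), against the PBS pool. These entered the model fit and are otherwise mentioned for single genes only. Doses are not given in the labels, so the NS398 and Indo cultures cannot be called dose-matched. Whether the replicates came from different animals or cultures is not stated, so the p-values cover the spread among these arrays alone, and that spread may be technical. The spread was estimated per probe over all 21 arrays, so an SE below is not that of the compared arrays alone.

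Cyclooxygenases turn arachidonic acid into the precursor from which terminal synthases make prostaglandins, prostacyclin and thromboxane. Cyclooxygenase 1, encoded by Ptgs1, is made constitutively in many tissues, while cyclooxygenase 2, encoded by Ptgs2, is an early response gene induced by injury and cytokines. Indomethacin is a non-steroidal anti-inflammatory drug that blocks both enzymes, and NS398 is a laboratory compound that blocks cyclooxygenase 2 in preference to cyclooxygenase 1. In injured cord, prostaglandins are made beside chemokines such as Ccl2 and Cxcl1, which attract monocytes and neutrophils.

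A value below is a log2 ratio of treated culture over vehicle pool, minus the median of all probes on its array. That the treated culture is the numerator was taken from the order of the RNAs in the titles, which is likely but not stated. The difference, NS398 minus Indo, compares one ratio with another, so the compound, the vehicle and the pool cannot be told apart in it. A ratio carries no expression level, so no level is compared between genes, and the labelled tissue could not be checked against its markers. A centred ratio of 0 is not equality with the vehicle either. In the Injured 4 hr arrays, where a PBS culture was set against the PBS pool, Cxcl1 read 1.44, 1.81 and 0.73 and Dcn read 1.51, 1.80 and 1.36.

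The arrays of both groups were uneven. Medians of the deposited ratios were -0.14, -0.89 and -1.62 in NS398 replicates 1, 2 and 3, against 0.24, -0.17 and -0.20 in the Indo replicates. Missing spots numbered 1738, 918 and 673 on the NS398 arrays and 1709, 1427 and 1631 on the Indo arrays, of 5376. Centred Gapdh, the glycolytic enzyme spotted 53 times, read 0.42, 1.35 and 2.31 in NS398 and 0.91, 0.87 and 0.25 in Indo. The median of the ribosomal protein probes moved with it, at 0.37, 1.12 and 2.08 in NS398 and at 0.34, 0.51 and -0.00 in Indo. NS398 replicate 3 therefore stood highest on both measures and replicate 1 lay within the Indo range. Over the 3680 probes tested, correlations between arrays were 0.45 to 0.59 within NS398 and 0.49 to 0.59 within Indo, against 0.36 to 0.55 between NS398 and Indo arrays. These correlations are descriptions, since arrays of a group share a reference pool.

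NS398 cultures had higher ratios than Indo cultures for a small set of genes led by the chemokines Ccl2 and Cxcl1 and by Ptgs2 itself. Of 3680 probes tested, 16 passed an adjusted p of 0.05 in limma, which is 0.435% of the probes. There were 15 higher in NS398 (0.408%) and 1 lower (0.0272%). If the pool were the numerator instead, every sign would turn, to 1 higher and 15 lower. They stand for 14 named genes, with 2 probes for Ccl2 and 1 probe without a listed gene. The higher genes were Ccl2, Cxcl1, Ptgs2, Mgp, Rpl-1, Dcn, Ocm, Ugdh, Scn7a, Myc, Pdpn, Arhgap17 and Sdc4, and the lower gene was Lcn2. For all 16 probes the measured NS398 and Indo arrays did not overlap. Over all probes tested, every NS398 array was above every Indo array for 10.7% and below for 6.96%, so lack of overlap alone was common. At an unadjusted p under 0.05 there were 406 of 3680 probes, or 11%, the share against which the unadjusted counts of the lists below are to be read. A further 1230 probes had fewer than 2 values in a group and were not tested.

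**Figure D1:**
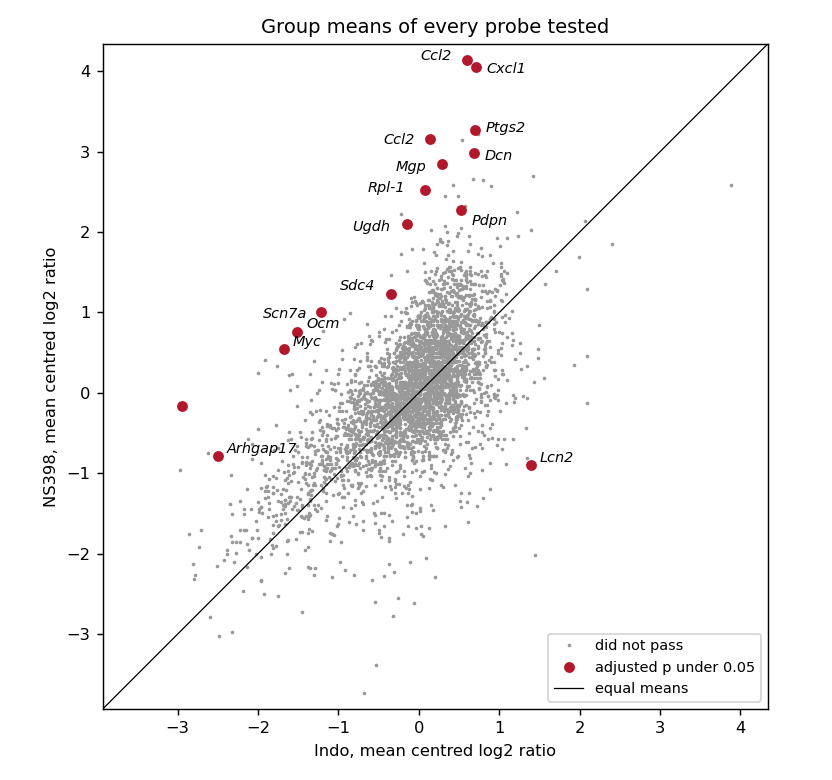
Mean centred log2 ratio of the 3680 probes tested, Indo on the horizontal axis and NS398 on the vertical axis, with the 16 probes past the threshold in red and the line of equal means in black. 15 of the 16 lie above the line, Ccl2, Cxcl1 and Ptgs2 highest, and Lcn2 lies below it.

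The number of calls depended on scaling and on single arrays. In the deposited ratios without centring, the median difference over all probes was -0.75, against 0.11 after centring, and 3 probes passed as higher and 12 as lower. The split was 22 higher and 7 lower with centring on the probes measured on every array, and 26 higher and 16 lower after quantile normalization. Ratios corrected for a trend with the mean Injured 4 hr ratio and for the source plate of the probe gave 29 higher and 7 lower, 36 in all or 0.985% of 3654 probes. All 16 probes also passed in the corrected ratios with the same sign. With 1 array left out the count was 57 without NS398 replicate 1, 14 without NS398 replicate 2 and 8 without NS398 replicate 3. It was 8, 26 and 10 without Indo replicates 1, 2 and 3. A term for sparse arrays (more than 1100 missing spots, all 3 Indo arrays and 1 NS398 array) left 8 calls, and a fit of the 6 compared arrays alone left 6. For 9 of the 16 probes (56.2%) the NS398 values were lowest on replicate 1 and highest on replicate 3, as for Gapdh and the ribosomal proteins, against 37.1% of the 3060 tested probes with 3 NS398 values. These were both Ccl2 probes, Rpl-1, Ugdh, Dcn, Mgp, Ocm, Myc and Arhgap17, and the part of that array difference in their results was not tested.

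**Figure D2:**
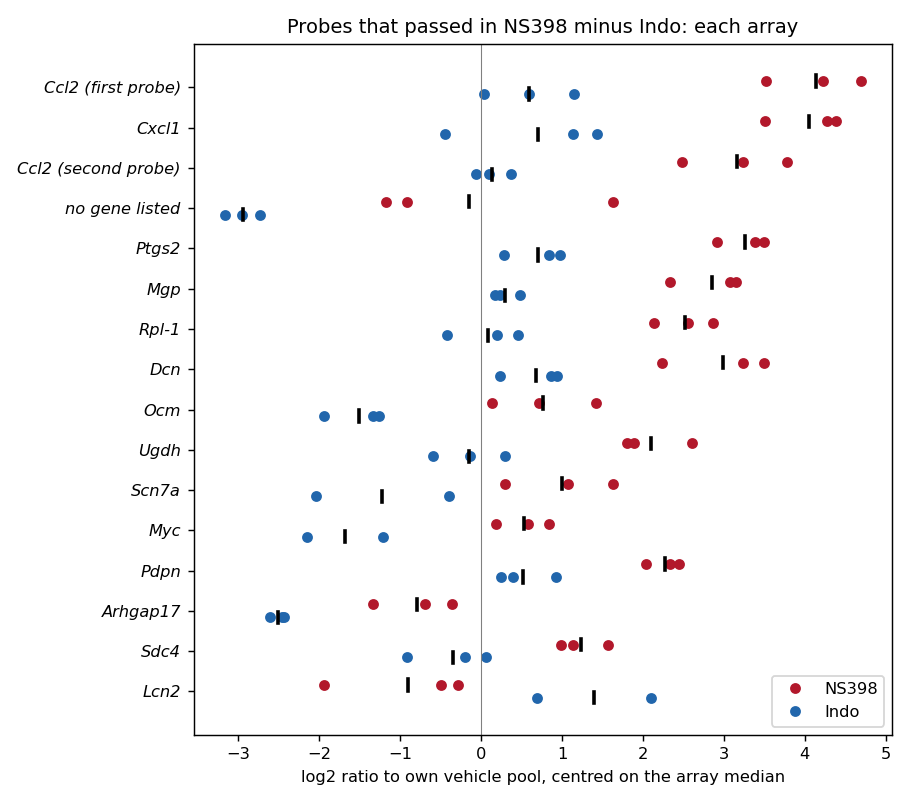
Centred log2 ratio to the vehicle pool for the 16 probes past the threshold, 1 point per array, with NS398 in red above Indo in blue in each row and the group mean as a black bar. No NS398 point reaches the Indo points of its row, and Lcn2 is the only row with NS398 on the left.

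Ccl2 encodes a chemokine that attracts monocytes. Its first probe had centred ratios of 3.52, 4.22 and 4.69 in NS398 cultures, against 0.59, 1.15 and 0.04 in Indo cultures. Its second probe read 2.48, 3.23 and 3.78 in NS398 and -0.06, 0.10 and 0.37 in Indo. On both probes every NS398 array lay more than 2 log2 units above the highest Indo array. The difference was 3.55 ± 0.49 (SE, n = 3 each) on the first probe, an 11.7-fold higher ratio (adjusted p = 0.000338, limma). On the second probe it was 3.03 ± 0.40, or 8.14-fold (adjusted p = 0.000338, limma). Both probes passed under all 17 other settings, with differences of 2.71 to 3.86 and of 2.19 to 3.36. With the compared arrays alone in the fit, the adjusted p rose to 0.0233 on the first probe and 0.0304 on the second (limma).

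Cxcl1, a chemokine for neutrophils, had ratios of 3.51, 4.38 and 4.27 in NS398, against -0.44, 1.13 and 1.43 in Indo. The NS398 arrays lay close together, while Indo replicate 1 lay well below the other Indo arrays. The difference was 3.35 ± 0.52 (SE, n = 3 each), a 10.2-fold higher ratio (adjusted p = 0.00131, limma). It passed under all 17 other settings, at 2.51 to 3.71, and with the compared arrays alone its adjusted p rose to 0.0317 (limma). Cells that make a chemokine and RNA per such cell cannot be told apart in RNA of whole cultures, here and for every gene below.

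The cytokine and chemokine list held 37 tested probes of 33 genes. Ccl2 and Cxcl1 gave all 3 calls of the list, and none was lower. The list median was 0.35, against 0.11 for all probes, and 0.15 against -0.02 in the corrected ratios. At an unadjusted p under 0.05 in limma there were 5, beside 11% of all probes. Every NS398 array lay above every Indo array for 7 probes and below for 1, beside 10.7% and 6.96% of all probes. Nearest below the threshold by size was Cxcl2, another neutrophil chemokine, with a difference of 1.28 (adjusted p = 0.375, limma). Ccl5, which attracts T cells, had 1.18 (adjusted p = 0.514), Ccl4 had 0.73 (adjusted p = 0.679) and Ccl3 had 0.61 (adjusted p = 0.868). The inflammatory cytokines lay closer to 0. Il6 had a difference of 0.04 (95% interval -0.97 to 1.05) and Il1a of 0.21 (-0.50 to 0.91). Tnf had 0.46 (-0.77 to 1.70) and Il1b had 0.27 (-0.82 to 1.37). These intervals hold values from a lower to a higher ratio in NS398, and they end below the differences of Ccl2 and Cxcl1. A second Il1b probe read 0.58, 0.80 and 0.66 in NS398 and 0.31 on the single Indo array that measured it, and was not tested.

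Ptgs2 encodes the enzyme that both compounds block. It had ratios of 2.92, 3.49 and 3.39 in NS398 cultures, against 0.84, 0.98 and 0.28 in Indo cultures. All NS398 arrays lay near 3 and all Indo arrays below 1. The difference was 2.57 ± 0.39 (SE, n = 3 each), a 5.93-fold higher ratio with a 95% interval of 1.76 to 3.37 in log2 (adjusted p = 0.00123, limma). It missed the threshold in the deposited ratios alone, at 1.73, and passed under the other 16 settings. With the compared arrays alone in the fit, its adjusted p rose to 0.0317 (limma). A second Ptgs2 probe was measured on NS398 replicate 3, at 0.12, and on Indo replicate 1, at -0.40, and could not be tested.

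The remaining genes of prostanoid synthesis and reception did not pass. Of 15 tested probes of 14 genes on that list, 1 was higher, Ptgs2, and none was lower, with a list median of 0.02. At an unadjusted p under 0.05 in limma there were 4, beside 11% of all probes. Every NS398 array lay above every Indo array for 2 probes and below for 1, beside 10.7% and 6.96% of all probes. Ptgs1 had 2 probes with unlike results. The first read -0.16 and -4.06 on NS398 replicates 2 and 3, against 0.94, -0.70 and -0.56 in Indo, a difference of -2.00 ± 0.75 (adjusted p = 0.288, limma). The second read -0.90, 0.41 and -0.60 in NS398 and -0.65, 0.24 and -1.03 in Indo, a difference of 0.12 ± 0.46 (adjusted p = 0.942). Only NS398 replicate 3 of the first probe lay far below the Indo arrays.

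Ptgds, the prostaglandin D synthase of the brain and its coverings, read 0.97, 2.46 and 4.31 in NS398, against 0.90, 0.50 and -0.10 in Indo. Its NS398 values, like those of the 9 probes named above, were ordered as the Gapdh and ribosomal values of those arrays, and their part in the result was not tested. The difference was 2.14 ± 0.75 (adjusted p = 0.244, limma). It passed without NS398 replicate 1, at 2.95. Ptges, the inducible prostaglandin E synthase, had a difference of 0.54 (95% interval -0.43 to 1.52). Ptgis, the prostacyclin synthase, had -1.46 (-2.65 to -0.27, adjusted p = 0.315). Tbxas1, the thromboxane synthase, had -0.38 (-1.18 to 0.42).

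Receptors for these products lay near 0. Ptger2, a prostaglandin E receptor, had a difference of 0.09 (95% interval -0.72 to 0.90). Ptgfr, for prostaglandin F, had 0.03 (-0.72 to 0.79) and Ptgir, for prostacyclin, had 0.02 (-1.20 to 1.24). Ptger1, Ptger3 and Ptger4 had 1 value each in Indo and were not tested. The intervals of Ptger2 and Ptgfr exclude a change as large as that of Ptgs2.

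Genes of the neighbouring lipid pathways gave no call. The list of phospholipases and the lipoxygenase pathway had 0 of 14 probes past the threshold in limma (2 at an unadjusted p under 0.05, beside 11% of all probes) and a median of 0.16. Alox5, which starts leukotriene synthesis, had 0.34 (95% interval -0.32 to 1.01). Alox15 had 0.62 (-0.57 to 1.82), and Pla2g2a, a secreted phospholipase, had 0.03 (-0.87 to 0.93). The largest differences of the list were 2.25 for Pla2g5 (adjusted p = 0.11, limma) and 1.49 for Ephx2 (adjusted p = 0.375). Its lowest were -0.60 for Pld2 and Pla2g1b. The list of PPAR and lipid metabolism genes had 0 of 32 probes (6 unadjusted) and a median of -0.12. It ran from -1.98 for Ucp3 (adjusted p = 0.0853, limma) to 1.11 for Dbi (adjusted p = 0.416). Its nuclear receptors, which some cyclooxygenase inhibitors bind, had differences of -0.13 for Ppara, 0.70 for Ppard and -0.81 for Pparg. The drug and alcohol metabolism list had 0 of 61 probes (7 unadjusted) and a median of -0.00.

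**Figure D3:**
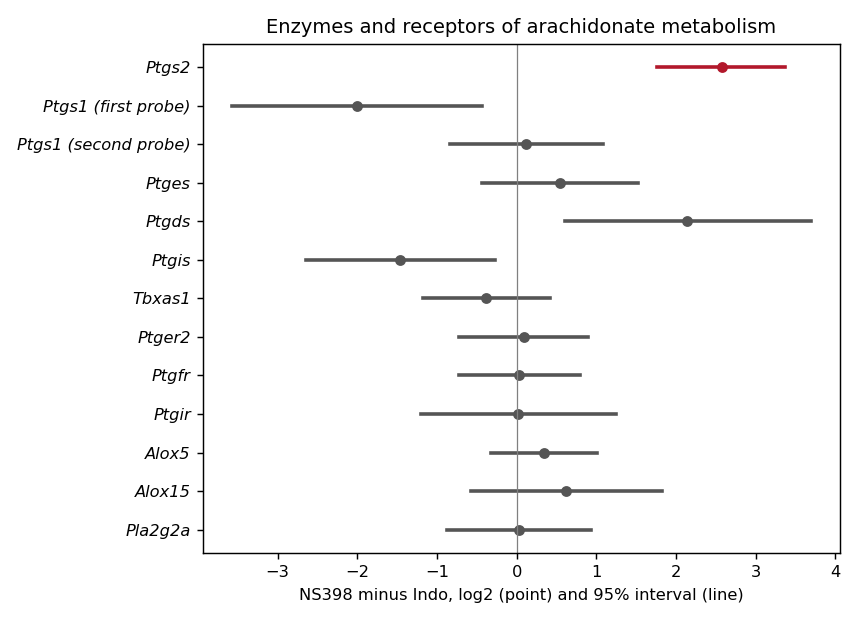
Difference in log2 ratio, NS398 minus Indo, with its 95% interval from the limma fit for enzymes and receptors of arachidonate metabolism. The interval of Ptgs2 runs from 1.76 to 3.37, and Ptgs2 is the only gene drawn in red, the colour of an adjusted p under 0.05.

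NF-kB is the transcription factor through which cytokines induce many chemokine genes, and Nfkbia encodes its inhibitor, itself induced by NF-kB. Nfkbia read 1.21, 2.07 and 2.11 in NS398, against -0.28, 0.26 and -0.24 in Indo. The arrays did not overlap, and the difference was 1.88 ± 0.47 (SE, n = 3 each, adjusted p = 0.0707, limma). It passed under 8 of the 17 other settings, the corrected ratios among them at 1.50, and without NS398 replicate 1 at 2.17. The NS398 values of Nfkbia were ordered as Gapdh on those arrays, and the part of that in the result was not tested. MP replicate 2, an array with high centred Gapdh, read 1.89. The Injured 4 hr arrays read 1.18, 1.20 and 1.26, near NS398 replicate 1, and the remaining MP, CKIN and Acet arrays lay lower. The list of NF-kB components and targets had 0 of 14 probes past the threshold in limma (5 at an unadjusted p under 0.05, beside 11% of all probes) and a median of 0.48. For 7 of the 14 probes every NS398 array lay above every Indo array, and for 0 every one lay below, beside 10.7% and 6.96% of all probes. Medians of the list by array were 0.66, 0.54 and 0.76 in NS398 and -0.25, 0.21 and -0.14 in Indo. Zfp36, which destabilises cytokine RNAs, had 1.66 (adjusted p = 0.192), Nfkb1, a subunit, had 1.33 (adjusted p = 0.146) and Sod2, a mitochondrial antioxidant enzyme, had 1.31 (adjusted p = 0.252). Sele and Selp, adhesion molecules of vessels, went below 0, at -0.74 and -1.29, and did not pass.

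Among 22 probes of early response genes, 1 was higher and none lower, with a median of 0.53. At an unadjusted p under 0.05 in limma there were 5, beside 11% of all probes. For 9 probes every NS398 array lay above every Indo array and for 1 below, beside 10.7% and 6.96% of all probes. The call was Myc, a transcription factor of growth. It read 0.19, 0.58 and 0.84 in NS398 and -2.15 and -1.21 on the Indo arrays that measured it. Its difference was 2.22 ± 0.49 (SE, n = 3 and 2, adjusted p = 0.0357, limma), and the call was lost without NS398 replicate 2 (2.20) or replicate 3 (2.07). It was also lost in deposited ratios (1.30), with the sparse-array term (1.62), without small whole-number ratios (2.20) and with the compared arrays alone. Egr1 had 0.89 (adjusted p = 0.451) and Atf3 had 0.96 (adjusted p = 0.318). Of the stress genes, Hmox1, which degrades heme, had 1.67 ± 0.57 (adjusted p = 0.241), and the 2 probes of Hspa1a, the inducible heat shock protein, had 1.62 and 1.10 and did not pass.

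Promoters are shown for Cxcl1 and Ptgs2 alone, which had the 2 largest differences among the passed genes with an entry. Of the 14 genes, 9 had an entry in the RefSeq promoter table (build GRCr8), each running from 250 bases before the gene start to 50 after it. Ccl2, Mgp, Rpl-1, Dcn and Myc are named only. The windows are chr14:17479272-17479571 on the minus strand for Cxcl1 and chr13:64713813-64714112 on the plus strand for Ptgs2. Capitals mark 2 overlapping matches to the NF-kB consensus in Cxcl1 and 1 match to the C/EBP letters TTNNGNAA in Ptgs2.
Cxcl1: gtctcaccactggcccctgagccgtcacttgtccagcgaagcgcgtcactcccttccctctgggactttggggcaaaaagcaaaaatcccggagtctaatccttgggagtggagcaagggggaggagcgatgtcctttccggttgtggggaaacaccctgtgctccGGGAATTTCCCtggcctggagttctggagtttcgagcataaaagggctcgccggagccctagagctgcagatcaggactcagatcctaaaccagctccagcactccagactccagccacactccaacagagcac
Ptgs2: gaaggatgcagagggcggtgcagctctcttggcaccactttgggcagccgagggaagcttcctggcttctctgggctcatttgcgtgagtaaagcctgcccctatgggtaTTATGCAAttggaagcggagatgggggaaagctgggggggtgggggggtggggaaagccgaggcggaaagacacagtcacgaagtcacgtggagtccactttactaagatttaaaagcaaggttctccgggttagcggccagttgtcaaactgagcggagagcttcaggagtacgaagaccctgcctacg
The Cxcl1 matches span bases 167 to 176 and 168 to 177 of the window, and the Ptgs2 match spans bases 111 to 118. Both strands were searched. The NF-kB consensus was found in 4 of the 9 promoters, those of Cxcl1, Ocm, Sdc4 and Lcn2, and in 7.51% of 33469 rat promoter windows of the same length. The C/EBP letters occur in 41.3% of those windows, the AP-1 letters TGANTCA in 7.33%, the CRE letters TGACGTCA in 1.83% and TATAAA in 14.2%. A match describes the letters and is not evidence of binding.

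The next 5 genes are described together for their known roles in matrix and on cell surfaces, a grouping made after the calls were seen, and Dcn alone of them is on the list of vessel and connective tissue markers. Mgp, a matrix protein that inhibits calcification, read 2.34, 3.07 and 3.15 in NS398, against 0.17, 0.48 and 0.23 in Indo. Dcn, the collagen-binding proteoglycan decorin, read 2.24, 3.24 and 3.50 in NS398 and 0.87, 0.94 and 0.24 in Indo. In both genes NS398 replicate 1 was the lowest NS398 array and still lay above every Indo array. The differences were 2.56 ± 0.51 for Mgp (5.91-fold, adjusted p = 0.0166, limma) and 2.31 ± 0.50 for Dcn (4.95-fold, adjusted p = 0.028). Neither call held without Indo replicate 1 (Mgp 2.50, Dcn 2.40), Indo replicate 3 (2.53, 2.09), NS398 replicate 2 (2.45, 2.18) or NS398 replicate 3 (2.41, 2.06). Both were also lost in deposited ratios (1.72, 1.47) and with the sparse-array term (1.73, 1.36), and Dcn after quantile normalization (1.80) and with the compared arrays alone.

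Pdpn, a membrane glycoprotein of lymphatic vessels and fibroblasts, read 2.04, 2.44 and 2.33 in NS398, against 0.40, 0.92 and 0.25 in Indo. Sdc4, a heparan sulfate proteoglycan of cell adhesion, read 1.13, 1.57 and 0.99 in NS398, against -0.20, 0.06 and -0.91 in Indo. In both genes the NS398 values lay close together and above every Indo value. Ugdh, which makes the sugar precursor of such glycosaminoglycans, read 1.80, 1.89 and 2.60 in NS398 and -0.14, 0.30 and -0.59 in Indo. The differences were 1.74 ± 0.36 for Pdpn (adjusted p = 0.0221, limma), 1.58 ± 0.35 for Sdc4 (adjusted p = 0.0357) and 2.24 ± 0.38 for Ugdh (adjusted p = 0.00347). Ugdh passed with any single array left out, while Pdpn and Sdc4 were lost without Indo replicate 1 (1.68 and 1.65), Indo replicate 3 (1.61 and 1.30), NS398 replicate 2 (1.66 and 1.41) or NS398 replicate 3 (1.71 and 1.70). In deposited ratios all 3 were lost, at 1.40 for Ugdh, 0.90 for Pdpn and 0.74 for Sdc4, as they were with the compared arrays alone. Pdpn and Sdc4 were also lost with the sparse-array term (1.47 and 1.56), Pdpn after quantile normalization (1.44) and Sdc4 with centring on probes measured on every array (1.41).

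The list of vessel and connective tissue markers as a whole had 1 of 25 probes past the threshold, Dcn, with a median of 0.26. By array its median was 0.19, -0.02 and -0.05 in NS398 and 0.00, -0.07 and -0.26 in Indo. At an unadjusted p under 0.05 in limma there were 6 of its probes, beside 11% of all probes. Every NS398 array lay above every Indo array for 8 and below for 2, beside 10.7% and 6.96% of all probes. Col1a2, a collagen chain, had 1.95 and Timp1, an inhibitor of matrix proteases, had 1.85 (adjusted p = 0.0707 for each, limma). The endothelial markers Pecam1, Cldn5 and Vwf had 0.39, -0.03 and -0.36. Lum, a proteoglycan related to decorin, had -0.07 (adjusted p = 0.969), and the values of the list were spread on both sides of 0.

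The rest of the calls share no list. Rpl-1, a placental lactogen of the prolactin family, read 2.14, 2.56 and 2.86 in NS398, against 0.20, 0.46 and -0.42 in Indo. Its difference of 2.44 ± 0.38 (SE, n = 3 each, 5.43-fold, adjusted p = 0.00123, limma) passed under every setting but the deposited ratios (1.60). Family members of near-identical sequence exist, and the probe may read more than 1 of them. Ocm, the calcium-binding protein oncomodulin, read 0.14, 0.72 and 1.42 in NS398 and -1.94, -1.26 and -1.33 in Indo. The difference was 2.27 ± 0.44 (adjusted p = 0.0121), and the call was lost without Indo replicate 1 (2.05) or NS398 replicate 3 (1.94), in deposited ratios (1.43), with the sparse-array term (1.57) and with the compared arrays alone.

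Scn7a, a sodium channel subunit of glia and sensory neurons, read 1.07, 1.63 and 0.30 in NS398, against -2.04 and -0.40 on Indo replicates 1 and 2. It was the only call among 56 tested probes of channel genes (9 at an unadjusted p under 0.05 in limma, beside 11% of all probes). Its SD was 0.66 in NS398 and 1.17 in Indo, wider than the SE of the whole fit conveys. Its difference was 2.22 ± 0.46 (adjusted p = 0.0265, limma), lost without NS398 replicate 2 (1.91), in deposited ratios (1.30), with centring on probes measured on every array (2.07), with the sparse-array term (2.33) and with the compared arrays alone. The probe without a listed gene read -0.91, -1.18 and 1.63 in NS398, against -2.73, -2.95 and -3.16 in Indo. Its SD was 1.55 in NS398 and 0.21 in Indo. Its difference was 2.79 ± 0.52 (adjusted p = 0.0103), and it was 1.90 without NS398 replicate 3, still past the threshold. It was lost in deposited ratios (1.95), with the sparse-array term (2.22) and with the compared arrays alone. Arhgap17 was below 0 in both groups, at -1.33, -0.69 and -0.36 in NS398 and at -2.44, -2.46 and -2.61 in Indo. Its difference was 1.71 ± 0.36 (adjusted p = 0.0265), lost without Indo replicate 1 (1.74), Indo replicate 3 (1.66), NS398 replicate 2 (1.66) or NS398 replicate 3 (1.49). It was also lost in deposited ratios (0.87), with the sparse-array term (1.24), without small whole-number ratios (1.66) and with the compared arrays alone.

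Lcn2, a secreted iron-carrier protein of reactive astrocytes and neutrophils, was the only gene lower in NS398. It read -0.28, -0.49 and -1.94 in NS398 cultures, against 2.10 and 0.69 on Indo replicates 2 and 3. Indo replicate 1 had no value, the Indo values lay far apart, and NS398 replicate 3 lay well below NS398 replicates 1 and 2. The single CKIN value, 1.80, fell within the Indo range, while MP and Acet values ran from -0.20 to 0.45. The SD was 0.90 in NS398 and 1.00 in Indo, against 0.08 in Injured 4 hr and 0.11 in Uninjured, which also enter the SE. The difference was -2.29 ± 0.46 (SE, n = 3 and 2, adjusted p = 0.0235, limma). It did not pass without NS398 replicate 3 (-1.78), in deposited ratios (-2.99), with the sparse-array term (-2.03) or with the compared arrays alone.

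Markers of the other cord cell types gave no call in the centred ratios. The lists had 0 of 37 neuronal, 0 of 18 astrocyte, 0 of 15 oligodendrocyte, 0 of 12 microglial and 0 of 5 blood probes past the threshold, with medians of 0.04, 0.18, 0.31, 0.28 and 0.68. At an unadjusted p under 0.05 in limma there were 3, 1, 1, 2 and 0, beside 11% of all probes. By array the oligodendrocyte median was 0.07, 0.84 and 1.22 in NS398 and 0.36, 0.35 and 0.03 in Indo, in the same order within NS398 as Gapdh. In the corrected ratios it was -0.19 as a difference, and the neuronal median was -0.30, so the direction of both depended on the correction. Vim, an intermediate filament of astrocytes and fibroblasts, came nearest to a call, at 2.61 (adjusted p = 0.0514, limma), with its NS398 values also in the order of Gapdh. Gfap, the filament of mature astrocytes, had 0.03 (95% interval -1.05 to 1.11), and Mbp, a myelin protein, had 1.16 (adjusted p = 0.451). Of the 27 lists, the ribosomal proteins had the highest median, 0.86 over 73 probes, with 0 calls (13 unadjusted). In the corrected ratios its median was 0.16, and Gapdh moved to 0.02 there, against 0.68 in the centred ratios. The remaining 12 lists, from heat shock proteins and solute carriers to apoptosis and cholesterol synthesis genes, had 0 calls each (1 to 13 unadjusted). The count of 13 was that of the solute carriers, with 96 probes tested. Medians ran from -0.16 to 0.67, the last for antioxidant defence. That list had 8 of 23 probes at an unadjusted p under 0.05 in limma, beside 11% of all probes.

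**Figure D4:**
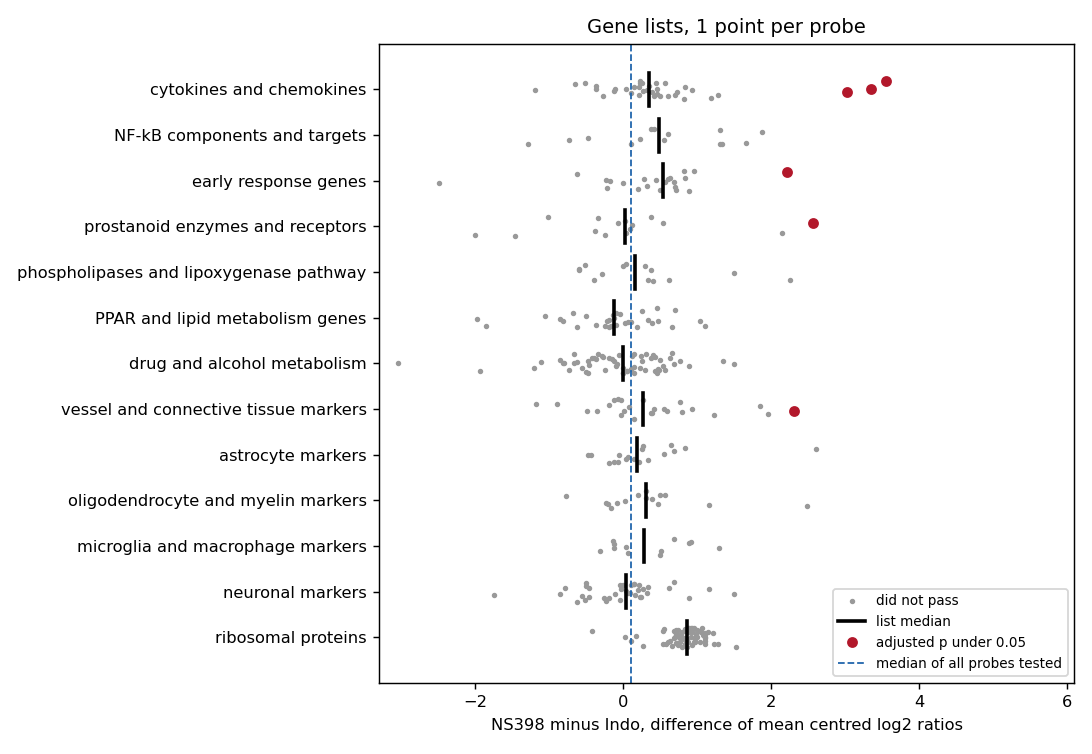
Difference in mean centred log2 ratio, NS398 minus Indo, for the tested probes of 13 gene lists, 1 point per probe, with list medians as black bars and the median of all probes (0.11) as a dashed line. The red points past the threshold are Ccl2, Cxcl1, Myc, Ptgs2 and Dcn, and the ribosomal points sit together near 0.86.

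To see which side of the comparison stood apart, both groups were set against the mean of the CKIN, MP and Acet arrays. Those arrays serve both comparisons, and their pool was PBS, so the values are given side by side. In NS398 minus that mean, 80 of 3520 probes passed (2.27%), 46 higher and 34 lower. In Indo minus that mean, 0 of 3277 passed in limma (0%), with 318 at an unadjusted p under 0.05 and up to 10 passing under another setting. In deposited ratios the NS398 count was 250, of which 24 were higher and 226 lower. Between CKIN and Acet, which share the PBS pool, 6 of 3749 probes passed (0.16%), 1 higher and 5 lower, a count that became 96 higher and 10 lower with centring on probes measured on every array and 13 and 5 in the corrected ratios.

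Of the 16 probes above, 11 could be tested in these comparisons, and 10 passed as higher in NS398 while 0 passed in Indo. The NS398 and Indo arrays are those that gave the calls, so these counts are not a separate test of them. The first Ccl2 probe had 4.33 ± 0.40 for NS398 (adjusted p = 1.62e-07, limma) and 0.78 ± 0.40 for Indo (adjusted p = 0.519). Cxcl1 had 4.11 ± 0.44 for NS398 (adjusted p = 2.62e-06) and 0.77 ± 0.43 for Indo (adjusted p = 0.566). For Dcn the values were 2.46 and 0.15, for Mgp 2.48 and -0.08, and for Pdpn 1.96 and 0.21. Arhgap17 was the exception, at 0.88 for NS398 (adjusted p = 0.142) and -0.83 for Indo (adjusted p = 0.43). Ptgs2 could not be tested there, since CKIN had 1 value. It read -0.05 on that array, -0.12, 1.48 and 0.72 in MP and -0.70, -0.26 and -0.03 in Acet, all below the NS398 values.

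The single arrays showed the same order for most of these genes. The Injured 4 hr arrays read 0.83, 0.91 and 0.43 for the first Ccl2 probe and 1.16, 1.26 and 0.85 for Ptgs2, above 0 and below the lowest NS398 array. In Mgp and Dcn, MP replicate 2 reached 2.27 and 2.45, beside 2.34 and 2.24 in NS398 replicate 1. That MP array also had a high centred Gapdh, 2.62. In Ccl2, Cxcl1, Ptgs2 and Pdpn no array of the other treatments or of Injured 4 hr reached the lowest NS398 array. The Uninjured arrays also lay below it in Ccl2, Cxcl1 and Ptgs2. In Pdpn they read 1.87, 2.68 and 2.73, so Uninjured replicates 2 and 3 lay above every NS398 array. In Arhgap17 every Injured 4 hr array, at -0.30, -0.20 and 0.22, lay above every NS398 array. The Injured 4 hr arrays overlapped NS398 in Ocm (0.24, 0.71 and -0.54) and Myc (-0.28, 0.03 and 0.30). They also did so for the probe without a listed gene (-0.47, -0.99 and -0.49).

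**Figure D5:**
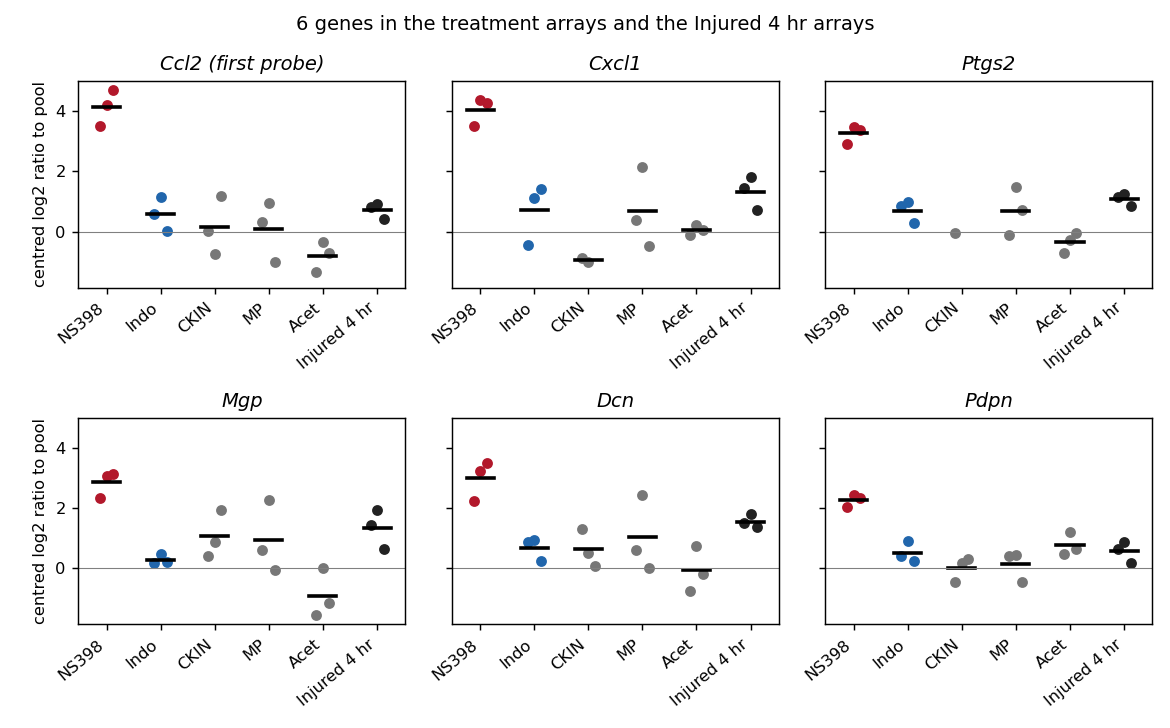
Centred log2 ratio of 6 genes on each array of the NS398, Indo, CKIN, MP, Acet and Injured 4 hr groups, with group means as black bars where more than 1 array had a value. NS398 lies highest in Ccl2, Cxcl1, Ptgs2 and Pdpn, while 1 MP array comes just below the NS398 points in Mgp and lies among them in Dcn.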

How the data were processed

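The deposited values are log2 ratios, 1 column per array, of a sample over its reference pool. Base 2 was inferred: log2 ratios of whole numbers up to 12 recur among the values (within 0.00015). The dyes, scanner, background correction, normalization, spot filter and build were not given in the labels. Intensities were not used here. Of 5376 spots, 4962 had a value on some array. The 53 Gapdh spots were averaged, which left 4910 probes. Symbols came from the platform annotation, which gave 1 gene for 4423 spots, and 4375 were updated through RefSeq. Each array was centred on its probe median.

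One linear model with a coefficient for each group was fitted to all 21 arrays (limma 3.58.1, R 4.3.3) and its statistics were moderated. Tests were 2-sided, with Benjamini-Hochberg adjustment over all probes with 2 or more values in each compared group and a threshold of 0.05. There were 4 comparisons, 1 of them between compounds of interest, and 27 gene lists described by counts and medians. The fit was also run on simulated data with independent noise and no array-wide trend, so uneven arrays as described above were not covered. For the corrected ratios, each array's loess trend (span 0.4) against the mean Injured 4 hr ratio was removed, and probes from source plates of 20 or more were then centred by plate. That mean stands in for brightness, which could not be checked. Named are the 15 largest passing differences per direction whose arrays do not overlap, at most 4 passing genes per list, and a panel of 35 genes. Other list members given with values were chosen after their values were seen. The members, lists and settings were chosen with earlier results of these data known. Precision is limited by 3 arrays per group.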

Additional observations from a re-analysis of the deposited data

How the results depend on the processing

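All 16 probes past the threshold kept their direction under each of the 17 other settings that gave a value, and 13 fell short of the threshold under at least 1 of them. With only the compared arrays in the fit, 6 probes passed. Counts were 29 with centring on probes measured on every array, 42 after quantile normalization, 36 in corrected ratios, 8 with the sparse arrays (more than 1100 missing spots, all 3 Indo arrays and 1 NS398 array) as a term and 96 with array weights, and 8 to 57 with 1 array left out. For NS398 minus the mean of CKIN, MP and Acet the count of 80 became 250 in deposited ratios, 160 in corrected ratios, 50 over probes complete on the compared arrays, 31 with only those arrays in the fit, 171 with the array set as a term and 174 with array weights, and 44 to 101 with 1 array left out. For Indo minus that mean it was 10 after quantile normalization, 6 with array weights and 1 each with centring on probes measured on every array, scale normalization and corrected ratios, and 0 to 1 with 1 array left out. For CKIN minus Acet the count of 6 became 2 in deposited ratios, 106 with centring on probes measured on every array, 102 after quantile normalization, 20 after scale normalization, 18 in corrected ratios, 0 without small whole-number ratios, 20 over complete probes, 0 with only the compared arrays and 217 with array weights, and 0 to 28 with 1 array left out. The cause was not tested for any of these shifts, beyond the fewer arrays or probes that some settings hold.

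The labels do not state whether same-numbered NS398 and Indo replicates are paired, and the main fit did not pair them. Deviations of same-numbered NS398 and Indo arrays correlated at -0.03, 0.03 and -0.11 over 2588 probes. Array-wide differences such as those of Gapdh enter these deviations, so the correlations do not settle the pairing. With the replicate block the count was 23 for NS398 minus Indo, 85 for NS398 and 0 for Indo minus the other treatments, and 6 for CKIN minus Acet.

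Genes past the threshold in neither setting changed sign as follows. In deposited ratios the differences were -1.04 for Pla2g2a, -0.08 for Alox15, -0.30 for Ptges, -0.50 for Alox5, -0.80 for Il6, -0.63 for Il1a, -0.46 for Tnf, -0.81 for Gfap, -0.59 for Ppard, -1.12 for Ptger2, -1.19 for Ptgir, -0.81 for Ptgfr, -0.20 for Il1b, -0.72 for the second Ptgs1 probe and -0.16 for Gapdh. With centring on probes measured on every array they were -0.26 for Pla2g2a, -0.13 for Il6, -0.14 for Gfap, -0.19 for Ptger2, -0.26 for Ptgir, -0.14 for Ptgfr and -0.05 for Ptgs1. After quantile normalization they were -0.42 for Il6, -0.00 for Il1a, -0.06 for Gfap, -0.11 for Ptgir and -0.04 for Ptgfr, and after scale normalization -0.18 for Il6, -0.04 for Gfap and -0.04 for Ptgir. In corrected ratios they were -0.04 for Il6, -0.50 for Gfap and -0.15 for Ptgs1. With the array set as a term they were -0.70 for Il6, -0.02 for Il1a, -0.94 for Gfap, -0.18 for Ptger2, -1.24 for Ptgir, -0.38 for Ptgfr, -0.04 for Il1b and -0.27 for Gapdh. Array weights gave -0.11 for Tnf, -0.21 for Gfap and -0.05 for Ptgfr, leaving out small whole-number ratios gave 0.16 for Ppara, -0.12 for Ptgir and -0.26 for Ptgs1, and the replicate block gave -0.28 for Ptgir. With 1 array left out, ranges that cross 0 were -0.45 to 0.53 for Il6, -0.15 to 1.01 for Tnf, -0.35 to 0.23 for Gfap, -0.56 to 0.22 for Ppara, -0.02 to 0.21 for Ptger2, -0.37 to 0.55 for Ptgir, -0.07 to 0.19 for Ptgfr, -0.06 to 0.92 for Il1b and -0.27 to 0.48 for the second Ptgs1 probe. Without NS398 replicate 1, Barhl1 passed at -2.41, against -1.29 with it, and array weights added Ptgds (1.94) and Hspa1a (1.74). Signal over background is not given here, so dim probes could not be set apart.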

Other observations

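The corrected ratios added 16 named genes to the 14 above, which were singled out after their values were seen. Among the 12 higher genes were Vim, Nes and Pmp22, an intermediate filament protein of many cells, one of immature cells and a membrane protein of peripheral myelin. Vim read 2.01, 3.55 and 3.89 in NS398 cultures and 0.43, 1.09 and 0.10 in Indo cultures before correction, and its corrected difference was 2.14 (adjusted p = 0.00524, limma). Pmp22 had a corrected difference of 1.91 (adjusted p = 0.0327) and Nes of 1.49 (adjusted p = 0.0195). Tgm2, a transglutaminase that cross-links proteins, read 2.01, 1.49 and 2.13 in NS398 and -0.11, 0.11 and 0.87 in Indo, with a corrected difference of 1.61 (adjusted p = 0.0297). Plat, the tissue plasminogen activator, had 1.58 (adjusted p = 0.0278), Col1a2 had 1.63 (adjusted p = 0.0222), and Irf1, a transcription factor induced by interferon, had 1.37 (adjusted p = 0.0477). Before correction, the NS398 values of Vim, Pmp22, Plat and Col1a2 were ordered as Gapdh on those arrays. In each of these genes MP replicate 2 lay above NS398 replicate 1, at 3.20 in Vim and 3.02 in Pmp22. The part of such array differences in these results was not tested.

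The 4 lower genes were Nefm, Kng2l1, Pcdhb7 and Cspp1. Nefm, a neurofilament subunit of axons, read -1.47, -0.38 and 0.63 in NS398 and -0.01, 0.94 and 0.40 in Indo before correction. Those arrays overlap, and its corrected difference was -1.32 (adjusted p = 0.0297, limma). Pcdhb7, a protocadherin, read -1.82 and -1.74 on the NS398 arrays that measured it and -0.46, 1.20 and -0.59 in Indo, with a corrected difference of -1.98 (adjusted p = 0.0297).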
